A study of Mus musculus with 21 samples.

Results

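Presentation of antigen by MHC class II was followed through 7 genes in 21 RNA-seq libraries of CD11b+ peritoneal cells from C57BL/6 mice. The 7 genes, H2-Aa, H2-Ab1, H2-Eb1, H2-DMa, H2-DMb1, Cd74 and Ciita, were taken by name from a table of 23544 genes, and all 7 passed a filter of 1 TPM on average (the share of a library's transcripts, in parts per 1000000), as did 11763 genes in all. The study set libraries labelled Lum-/- (6) and Bgn-/- (6; the growth protocol writes Bgn-/0, -/-) beside WT libraries (9). Cells labelled Lum-/- received recombinant lumican or no protein, cells labelled Bgn-/- recombinant biglycan or no protein, and WT cells lumican, biglycan or no protein. Each of these 7 combinations was given LPS, CpG or no stimulus, with 1 library each. LPS, which acts through Toll-like receptor 4, was used at 100 ng/mL. CpG, a DNA that acts through Toll-like receptor 9, was used at 1 µM. Both were left on for 6 h, and a protein was added at 10 µg/mL from 1 h before the stimulus. For the libraries with a protein and no stimulus the labels give no dose or time. All cells came from unelicited peritoneal lavage (mice, n = 10), were selected for CD11b, kept overnight in medium with charcoal-stripped serum and then moved to serum-free medium. No combination has a replicate and no label ties a library to an animal, so a genotype label cannot be told apart from its cell preparation, and the p-values measure only the spread between these libraries.

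The 2 proteins belong to the matrix proteoglycans built on leucine-rich repeats. MHC class II molecules present peptides from endocytosed protein to CD4+ T cells. Each is an alpha chain paired with a beta chain (H2-Aa with H2-Ab1 in I-A; H2-Eb1 is the beta chain of I-E, whose alpha chain gene is defective in C57BL/6 mice). The invariant chain Cd74 fills the groove during transport, is cut down by lysosomal proteases, and its last fragment is exchanged for peptide with the help of H2-DM, the pair of H2-DMa and H2-DMb1. Ciita, the class II transactivator, binds no DNA itself and is held at class II promoters by RFX, CREB and NF-Y factors on the conserved X and Y boxes. Large peritoneal macrophages carry little surface class II, whereas small peritoneal macrophages, dendritic cells and B cells carry much.

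The 5 H2 genes lie together in the MHC on chromosome 17 (GRCm38): H2-DMa at chr17:34119541-34139101, H2-DMb1 at chr17:34153072-34160230, H2-Ab1 at chr17:34257689-34269419, H2-Aa at chr17:34282744-34287823 on the minus strand and H2-Eb1 at chr17:34305867-34316674. Ciita lies at chr16:10480059-10528418. H2-DMb1 fell with CpG while H2-Aa and H2-Eb1 did not, though all of them fell with LPS in the deposited TPM. Their promoters are shown because they carry the same pair of short elements. Each is the 150 bases before the start site, from RefSeq (GRCm38.p6), with GNAAC (part of the X box) and TGATTGG (the Y box) in capitals. For H2-DMb1 the GENCODE gene begins further upstream, inside the printed stretch.
H2-Aa, chr17:34287824-34287973, minus strand: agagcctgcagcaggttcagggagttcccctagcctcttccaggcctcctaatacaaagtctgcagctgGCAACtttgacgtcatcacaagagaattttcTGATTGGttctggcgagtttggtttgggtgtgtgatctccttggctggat
H2-DMb1, chr17:34153041-34153190, plus strand: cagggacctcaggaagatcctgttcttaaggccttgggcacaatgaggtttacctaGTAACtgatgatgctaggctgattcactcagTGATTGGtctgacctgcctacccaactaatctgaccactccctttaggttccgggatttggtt
H2-Eb1, chr17:34305717-34305866, plus strand: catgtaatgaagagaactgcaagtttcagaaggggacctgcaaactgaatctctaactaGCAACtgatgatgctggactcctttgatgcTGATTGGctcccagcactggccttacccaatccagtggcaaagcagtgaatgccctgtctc
The search was for GNAAC, then 15 to 35 bases, then TGATTGG, on both strands of the 300-base window around each start, and was written after these sequences had been read. The spacing was 26 bases in H2-Aa, 26 in H2-DMb1 and 25 in H2-Eb1, with TGATTGG beginning 50, 63 and 61 bases before the start. Of 32851 RefSeq promoters, 187 (0.569%) held the pair, and 2568 (7.817%) held TGATTGG alone. Among other class II genes the pair was also found for H2-Oa, H2-Ob and H2-Eb2, while the window of H2-DMb2 held TGATTGG without the pair. For H2-Ab1, Cd74 and Ciita no promoter sequence was at hand, so they were not searched. The windows listed for H2-DMa hold no match. They begin at 34122582 and 34125268, upstream of 34135628, where its most abundant transcript begins.

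The targeted genes were read first. Lum was measured at 0.823 to 14.1 TPM in the 6 libraries labelled Lum-/-, against 0 to 1.40 TPM in WT libraries, which goes against the label. Bgn was measured at 0.758 to 3.49 TPM in 5 of the 6 libraries labelled Bgn-/- and at 0 in that with biglycan alone, against 0.327 to 1.52 TPM in WT libraries. The gene of the opposite label was low. Cells labelled Lum-/- had 0 to 0.263 TPM of Bgn, below every WT library, except for 1.72 TPM when untreated. Conversely, Lum reached at most 0.134 TPM under the Bgn-/- label, within the WT range, except for 1.10 TPM with biglycan alone. Whether the 2 labels had been exchanged was not tested. Which part of either gene these reads cover is not given, and the genotypes are named as labels throughout. A pair of unstimulated libraries, that of untreated cells labelled Lum-/- and that of cells labelled Bgn-/- with biglycan alone, stood apart, with 40241 and 40231 transcripts above 0, against 50990 to 59621 in the others, and with 688 and 601 TPM of Arg1 (arginase), against at most 67.2. They differed from each other by a median of 0.0866 on the log2 scale over 7320 genes, the second closest of all pairs. The other 209 pairs had a lowest value of 0.0843 and a median of 0.276, and the lowest of the 38 that hold 1 of these 2 libraries was 0.213. The untreated WT library also differed from its group, with 1.03 TPM of Cma1 (a mast cell protease) against 20.5 to 34.2 TPM in the other 8 WT libraries. Where a member's test against no stimulus or against WT changed its outcome without the 2 libraries that stood apart, both results are given. The gene lists and cell type markers are given with all 21 libraries only. Itgam (CD11b) was at 287 to 644 TPM and Adgre1 (F4/80) at 542 to 949 TPM in all 21 libraries, and Gata6, a factor of large peritoneal macrophages, at 2.22 to 10.6 TPM.

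The members spanned a wide range of abundance. Per length, Cd74 (on chromosome 18) was the highest at 598 to 1189 TPM over all libraries and ranked 168th of all genes by mean TPM. H2-Ab1 (193 to 417 TPM), H2-Aa (162 to 369) and H2-Eb1 (111 to 252) followed and overlapped one another over the libraries. H2-DMa (9.46 to 56.8 TPM) and H2-DMb1 (10.7 to 44.5) also overlapped each other, and Ciita (1.90 to 6.95) lay below every other member in every library. The order by mean was thus Cd74, H2-Ab1, H2-Aa, H2-Eb1, the 2 H2-DM genes with ranks of 4588 and 4671, and Ciita at rank 9731. H2-DMa varied most, with its highest library 6.00 times its lowest, and Cd74 least, at 1.99 times.

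**Figure D1:**
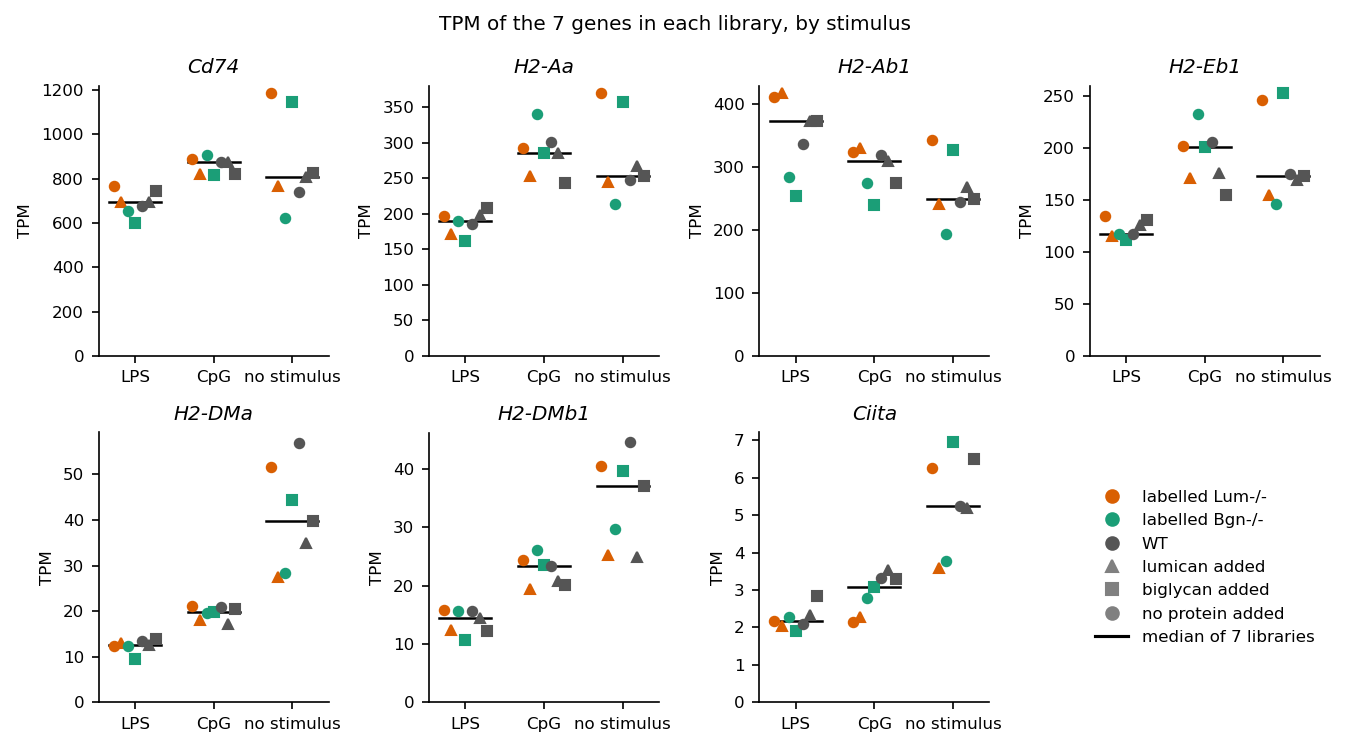
TPM of each of the 7 genes in the 21 libraries (y axis, linear, from 0), grouped by stimulus, with colour for the genotype label, shape for the added protein and a line for the median of 7 libraries. H2-DMa, H2-DMb1 and Ciita sit highest without stimulus, H2-Ab1 has its highest values with LPS, and the 2 libraries that stood apart are the highest unstimulated points for Cd74, H2-Aa, H2-Ab1 and H2-Eb1.

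The effect of LPS was read over 7 matched pairs of libraries that share label and protein. In bulk RNA, fewer cells of a type and less RNA per cell cannot be told apart. Of the classical chains, H2-Aa was at 162, 190 and 208 TPM (lowest, median and highest of 7) with LPS, against 214, 254 and 369 TPM without stimulus. Every LPS library lay below every unstimulated one. H2-Eb1 did the same, at 111, 117 and 135 TPM with LPS, against 146, 173 and 252 TPM without stimulus. H2-Ab1, the partner chain of H2-Aa, went the other way, at 253, 373 and 417 TPM with LPS, against 193, 249 and 343 TPM without stimulus. It was higher in 6 of 7 pairs, with overlap between the groups. Cd74 was at 598, 694 and 767 TPM with LPS, against 624, 809 and 1189 TPM without stimulus, with overlap, and was lower in 6 of 7 pairs.

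The H2-DM genes and the transactivator were lower in 7 of 7 pairs. H2-DMa was at 9.46, 12.5 and 13.96 TPM with LPS, against 27.6, 39.8 and 56.8 TPM without stimulus. Its groups lay far apart, with the highest LPS library below the lowest unstimulated one. H2-DMb1 was at 10.7, 14.5 and 15.8 TPM with LPS, against 24.9, 37.1 and 44.5 TPM without stimulus. Ciita was at 1.90, 2.18 and 2.84 TPM with LPS, against 3.59, 5.23 and 6.95 TPM without stimulus. In neither did the groups overlap. Thus 5 of the 7 members did not overlap between LPS and no stimulus, all lower with LPS. Of all genes tested, 66.8% did not overlap, 58.2% being lower with LPS.

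In the limma fit on log2(TPM + 1), with p-values adjusted over all 11763 genes, all 7 members passed with LPS, 6 lower and 1 higher. This is to be read against 86.1% of all genes in either direction and 72.0% lower. The median gene fell by 0.72 on the log2 scale with LPS, and median-of-ratios scaling, which sets the typical gene equal between libraries, moved that median to 0.01. The 10 most abundant genes of a library held 24.6 to 27.3% of its TPM with LPS, against 19.0 to 24.3% without stimulus, and their part in this shift was not tested. Transcripts above 0 numbered 50990 to 54625 with LPS and 55542 to 59404 with CpG. Without stimulus they numbered 56338 to 59621, leaving aside the 2 libraries that stood apart. The part of this difference in the shift was not tested either. H2-DMa (log2 change -1.59 ± 0.11, SE; adjusted p = 1.09e-08), H2-DMb1 (-1.24 ± 0.08; 4.59e-09) and Ciita (-0.95 ± 0.11; 2.1e-06) fell both as deposited and after scaling, when their changes were -0.79, -0.43 and -0.31. After scaling 6 members passed, all but H2-Eb1, beside 77.7% of all genes (39.1% higher and 38.6% lower). H2-Ab1 rose both ways, by 0.39 ± 0.10 (adjusted p = 0.00232) as deposited and by 1.23 after scaling. H2-Aa (-0.55 ± 0.12; adjusted p = 0.000633), H2-Eb1 (-0.60 ± 0.12; 0.00025) and Cd74 (-0.31 ± 0.11; 0.0223) fell as deposited, yet turned to 0.29, 0.24 and 0.54 after scaling, so that their direction depends on the scale. Relative to the median gene, H2-Ab1 lay 1.12 above, Cd74 0.42, H2-Aa 0.17 and H2-Eb1 0.13 above, and Ciita (-0.23), H2-DMb1 (-0.51) and H2-DMa (-0.87) below. Without the 2 libraries that stood apart, 6 members passed, beside 87.2% of all genes, and Cd74 was at -0.11 (adjusted p = 0.0839).

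**Figure D2:**
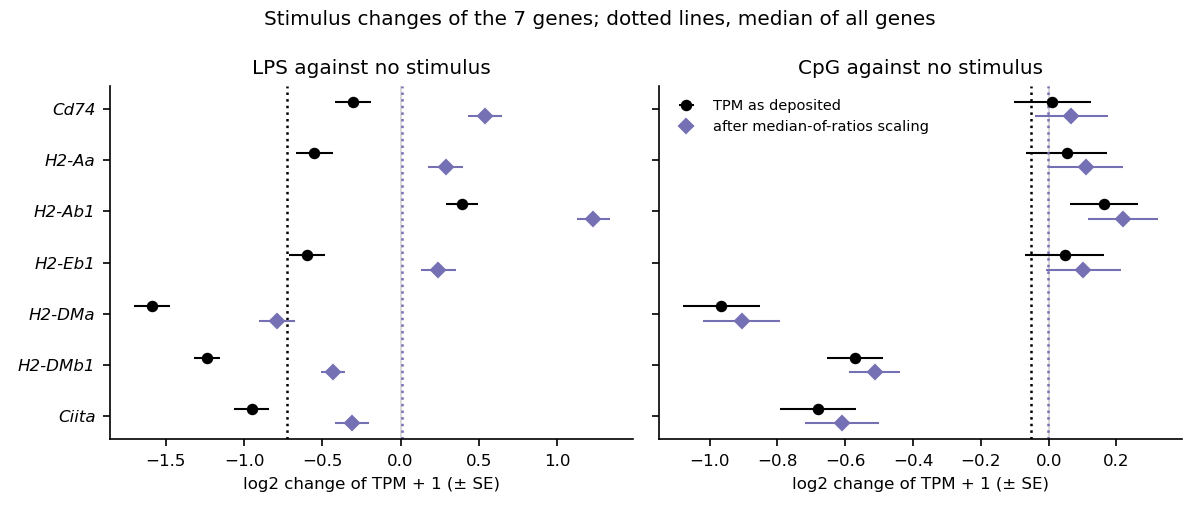
Log2 change of TPM + 1 with its SE (x axis) for each gene with LPS (left) and CpG (right) against no stimulus, from limma, with the TPM as deposited in black and after median-of-ratios scaling in purple. The dotted line is the median of all 11763 genes on each scale; H2-DMa, H2-DMb1 and Ciita lie below 0 on both scales and both stimuli, and with LPS the changes of H2-Aa, H2-Eb1 and Cd74 change sign between the scales.

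With CpG, H2-DM and Ciita were lower, while the classical chains and Cd74 did not pass. This comparison shares its 7 unstimulated libraries with that of LPS. H2-DMa was at 17.3, 19.8 and 21.1 TPM with CpG, against 27.6, 39.8 and 56.8 TPM without stimulus. H2-DMb1 was at 19.5, 23.3 and 26.0 TPM with CpG, against 24.9, 37.1 and 44.5 TPM without stimulus, with only the extremes meeting. Ciita was at 2.14, 3.09 and 3.53 TPM with CpG, against 3.59, 5.23 and 6.95 TPM without stimulus. H2-DMa and Ciita were the 2 members whose groups did not overlap, beside 12.4% of all genes.

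By limma 3 members passed with CpG, all lower, beside 37.5% of all genes (22.6% lower). H2-DMa changed by -0.97 ± 0.11 (adjusted p = 3.9e-05), Ciita by -0.68 ± 0.11 (0.00046) and H2-DMb1 by -0.57 ± 0.08 (0.00016), each lower in 7 of 7 pairs, against a median of -0.05 over all genes. Only 1.42% of all genes tested had a lower change with CpG than H2-DMa, 3.97% than Ciita and 6.43% than H2-DMb1. After scaling these were -0.91, -0.61 and -0.51 and remained the 3 that passed, beside 36.4% of all genes. H2-Aa was at 243, 286 and 341 TPM with CpG, H2-Ab1 at 239, 309 and 330, H2-Eb1 at 154, 201 and 233 and Cd74 at 816, 874 and 906. The changes of these 4 did not pass (0.05 ± 0.12, 0.16 ± 0.10, 0.05 ± 0.12 and 0.01 ± 0.11). The call depended on the 2 libraries that stood apart, which were the highest unstimulated ones for these 4 genes. Without them H2-Aa was 0.24 higher (adjusted p = 0.0273), H2-Ab1 0.33 (0.00204), Cd74 0.20 (0.0141) and H2-Eb1 0.22 (0.0601), so that 6 members passed beside 40.0% of all genes. Without the untreated WT library as well, all 7 passed, beside 35.6%, with H2-Eb1 at 0.28 (0.0325).

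Between the stimuli, all members except H2-Ab1 were lower with LPS than with CpG in the deposited TPM. All 7 passed, 6 lower and 1 higher, beside 85.7% of all genes (74.0% lower and 11.7% higher), with the median gene at -0.70. H2-DMb1 (-0.67 ± 0.08), H2-Eb1 (-0.64 ± 0.12), H2-DMa (-0.62 ± 0.11) and H2-Aa (-0.60 ± 0.12) lay at that median, and Cd74 (-0.32 ± 0.11) and Ciita (-0.27 ± 0.11) above it. After scaling all 6 turned positive, and only H2-Ab1 (1.01), Cd74 (0.47) and Ciita (0.30) passed, beside 74.0% of all genes (36.3% higher and 37.7% lower). H2-Ab1 was higher with LPS than with CpG on both scales, by 0.23 ± 0.10 (adjusted p = 0.0475) as deposited, and in 7 of 7 pairs. That call was lost in 18 of 32 alternatives, with adjusted p up to 0.144 when 1 library was left out (LPS of WT with biglycan), and the call of Ciita in 12 of 31. With LPS against CpG, H2-Aa, H2-Eb1, H2-DMa, H2-DMb1 and Cd74 had no overlap, beside 70.2% of all genes.

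Ratios between members within a library do not depend on how the library was scaled, and they separated the members. For each of 21 ratios and 3 comparisons, the log2 ratio was compared over the 7 matched pairs with an exact two-sided sign-flip permutation test, whose smallest p is 0.0156, and adjusted over the 63 tests. These tests were added after the data had been seen. The ratio of H2-Ab1 to H2-Aa was 1.49, 1.81 and 2.43 (lowest, median and highest) with LPS, 0.806, 1.08 and 1.30 with CpG and 0.903, 0.981 and 1.00 without stimulus. The I-A chains were thus near parity without stimulus, and every LPS library lay above every other. The log2 ratio was 0.95 higher with LPS than without stimulus, in 7 of 7 pairs (range 0.73 to 1.30; exact adjusted p = 0.024). With CpG it was 0.11 higher, in 5 of 7 pairs (exact adjusted p = 0.251). H2-Ab1 also gained on H2-Eb1 (0.99), Cd74 (0.70), Ciita (1.62), H2-DMb1 (1.69) and H2-DMa (2.06) with LPS, each in 7 of 7 pairs.

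The ratio of H2-Eb1 to H2-Aa stayed between 0.615 and 0.707 in all 21 libraries. Its inverse differed by 0.05 on the log2 scale with LPS (exact adjusted p = 0.265) and by 0.01 with CpG (0.844). H2-DMa fell behind every classical chain with both stimuli. The ratio of H2-Aa to H2-DMa was 13.2, 15.4 and 17.1 with LPS and 11.8, 14.4 and 17.3 with CpG, against 4.36, 7.54 and 8.88 without stimulus, a log2 gain of 1.11 and 1.05 in 7 of 7 pairs each (exact adjusted p = 0.024). H2-DMa also fell behind its partner H2-DMb1 by 0.41 with CpG, in 7 of 7 pairs (exact adjusted p = 0.024). With LPS the difference in that log2 ratio was -0.37, below 0 in 6 of 7 pairs, and did not pass (0.067). In all, 18 of the 21 ratios passed with LPS and 14 with CpG against no stimulus, and 10 between LPS and CpG. Ratios of other genes were not tested, so these counts have no background to be read against. The 21 ratios are built from 7 genes and are not independent. Leaving out the 2 libraries leaves 5 pairs, for which no ratio can pass, and the log2 ratio of H2-Aa to H2-Ab1 then changed by -0.94 with LPS, in 5 of 5 pairs.

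**Figure D3:**
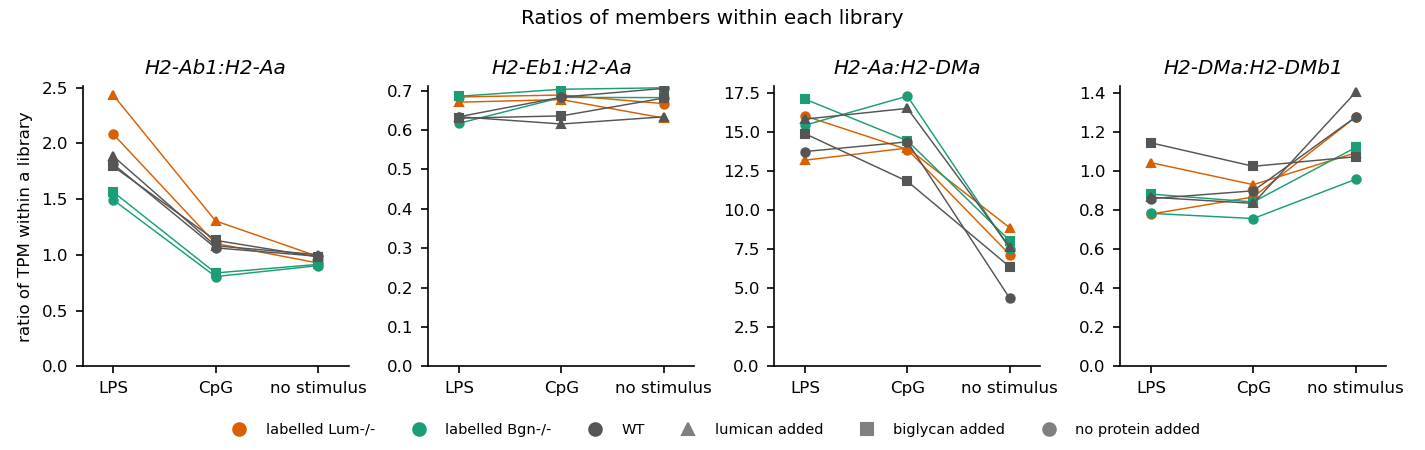
Ratio of TPM of 2 members within each library (y axes, linear, from 0) with LPS, CpG and no stimulus, with lines joining the 3 libraries of 1 genotype label and protein. H2-Ab1:H2-Aa is highest with LPS on all 7 lines, H2-Eb1:H2-Aa stays between 0.615 and 0.707, and H2-Aa:H2-DMa is lower without stimulus than with either stimulus on all 7 lines.

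Over the 21 libraries the members moved in groups, given here as a description of libraries that share labels and stimuli. On log2(TPM + 1), H2-Aa and H2-Eb1 had a Pearson r of 0.985 and each of them with Cd74 0.908 and 0.890. H2-DMa and H2-DMb1 had 0.953, and H2-DMa and Ciita 0.918. H2-Ab1 stood outside, at -0.126 with H2-Aa, its partner chain, and -0.338 with Ciita. These r, and those below, are from the deposited TPM, in which the median gene changed by -0.72 with LPS. After scaling H2-Aa (0.29) and H2-Ab1 (1.23) both rose with LPS, and r after scaling is not given here. No r of other gene pairs is given for comparison, so the groups are not read as particular to these genes. The 8 genes most like the mean of the 7 members, out of 8623 genes that averaged 5 TPM or more, were Def6 (r = 0.928), Wrap53 (0.926), Ccl6 (0.924), Vps13a (0.921), Pfdn1 (0.916), Peli2 (0.914), Mpi (0.914) and Spint1 (0.913).

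The deposited values are per transcript, and the makeup of 3 members differed between libraries or annotations. H2-Aa was 97.1 to 99.7% one coding transcript (H2-Aa-201), H2-Ab1 87.7 to 97.3% H2-Ab1-201, and Cd74 80.4 to 87.4% Cd74-201 with 10.7 to 16.1% in the coding Cd74-202. Of H2-DMa, the coding H2-DMa-205 held 62.1 to 84.5% with LPS and 72.4 to 90.8% with CpG, against 85.5 to 97.0% without stimulus. The LPS and unstimulated shares did not overlap. H2-DMa-205 itself was at 5.94, 9.71 and 10.7 TPM with LPS, against 24.4, 34.2 and 51.4 TPM without stimulus. Its own change with LPS was -1.85 ± 0.13, against -1.59 for the gene as a whole. For H2-Eb1 the largest share, 37.5 to 49.0%, went to H2-Eb1-205, annotated as a target of nonsense-mediated decay. H2-Eb1-203, one of its 2 coding transcripts, held 5.20 to 25.4%, and the share of the other is not given here. For Ciita, 47.0 to 87.8% lay in Ciita-201, the one transcript that reaches the gene's annotated end.

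Ciita is read from alternative promoters, known for use in dendritic cells and macrophages, in B cells, and after interferon gamma. Its annotated transcripts begin in 3 clusters on chromosome 16, which the files do not name by promoter. The middle cluster (10488178 to 10488279) held most of the gene, with a median share of 79.4% with LPS and 72.0% with CpG, against 73.5% without stimulus. It was at 1.45, 1.66 and 2.41 TPM with LPS and 1.22, 2.28 and 2.47 TPM with CpG, against 2.28, 3.81 and 4.86 TPM without stimulus. The most upstream cluster (10480059 to 10480164) was at a median of 0.165 TPM with LPS and 0.276 with CpG, against 0.415 TPM without stimulus, and the most downstream (10489746 to 10489783) at 0.254 and 0.476, against 0.931 TPM. These ranges overlap, and levels below 1 TPM split over several transcripts are poorly resolved.

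Other genes of the class II pathway mostly fell in the deposited TPM. Of 11 measured genes of a list of further class II genes, 10 were tested, and with LPS 9 fell and 0 rose as deposited, with a median change of -0.67 beside -0.72 over all genes. Of all genes, 72.0% fell with LPS as deposited. After scaling 3 rose and 1 fell, beside 39.1% and 38.6% of all genes. The proteases that cut the invariant chain were among those lower as deposited. Ctss (cathepsin S) was at a median of 2573 TPM with LPS, against 5153 TPM without stimulus (log2 change -0.97 ± 0.05; adjusted p = 4.77e-10), with a scaled value of -0.13. Lgmn (legumain) fell by 1.58 ± 0.07 on the log2 scale (4.68e-11), and by 0.74 after scaling. March1, whose product marks class II for degradation, did not pass with LPS as deposited (-0.15 ± 0.07; adjusted p = 0.0707).

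With CpG 8 of the 10 fell and 1 rose, with a median of -0.63 beside -0.05 over all genes, and the counts did not move with scaling. Of all genes, 22.6% fell with CpG as deposited. The genes of H2-O, which restrains H2-DM in B cells, were among them, with H2-Ob at 7.30, 10.4 and 11.9 TPM with CpG, against 16.0, 28.1 and 33.7 TPM without stimulus. The H2-Ob libraries did not overlap, and its log2 change was -1.26 ± 0.18 (adjusted p = 0.000182). H2-Oa changed by -0.65 ± 0.11 (0.000588) and H2-DMb2 by -0.94 ± 0.18 (0.00124). March1 rose by 0.34 ± 0.07 (0.00242), at 87.1 to 129 TPM with CpG, against 63.6 to 102 TPM without stimulus. H2-DMb2 and H2-Eb2 resemble H2-DMb1 and H2-Eb1 in sequence, so the split of reads between them is uncertain.

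A list of 26 regulators held the factors that act on class II promoters, together with interferon gamma signalling genes, their inhibitors and cytokines. With LPS 10 rose and 14 fell as deposited, with a median of -0.25 beside -0.72 over all genes, and after scaling 16 rose and 5 fell. Of all genes, 72.0% fell as deposited, and after scaling 39.1% rose and 38.6% fell. Of the X box factors, Rfxank was at 1.48, 2.12 and 3.45 TPM with LPS, against 9.64, 10.6 and 11.3 TPM without stimulus (log2 change -1.83 ± 0.07; adjusted p = 4.13e-11), and Rfxap changed by -1.17 ± 0.09. Both also fell after scaling (-1.17 and -0.37), whereas Rfx5 (-0.79 ± 0.09) fell as deposited with a scaled value of -0.02. Nfya, of the Y box complex, did not pass as deposited (-0.11 ± 0.05; adjusted p = 0.0589) and rose by 0.71 after scaling. With CpG the list had 8 higher and 6 lower, with a median of 0.14, beside 37.5% of all genes in either direction. Rfxank changed by -0.40 ± 0.07 (0.0011) and Rfxap by -0.34 ± 0.09 (0.00784).

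Genes of the interferon gamma route to Ciita moved in both directions with LPS. Ifng itself was at 2.05 to 4.62 TPM with LPS, against 0 to 0.0976 TPM without stimulus, with no overlap. Jak2, a kinase of the receptor, rose by 1.59 ± 0.08 (adjusted p = 2.12e-10). The receptor chain Ifngr1 fell by 1.86 ± 0.06 (4.04e-12), at 23.3 to 36.6 TPM with LPS, against 99.3 to 121 TPM without stimulus. Socs1 (3.25 ± 0.24) and Socs3 (3.09 ± 0.13), feedback inhibitors of JAK signalling, rose. The signs of these 5 genes were the same after scaling. With CpG, Ifng did not pass (0.36 ± 0.15; adjusted p = 0.0799), and Il10, a cytokine that lowers class II in macrophages, rose by 2.58 ± 0.21 (2.47e-06), at a median of 19.2 TPM with CpG (lowest library 15.8), against 2.27 TPM (highest 5.87) without stimulus.

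Class I presentation was measured for contrast. With LPS 7 of 10 class I genes rose and 1 fell (H2-D1, -0.48) as deposited, with a median of 0.64, and all 10 rose after scaling. Of all genes, 86.1% passed as deposited, 72.0% being lower, with a median of -0.72, and 39.1% rose after scaling. Nlrc5, the class I transactivator and a relative of Ciita, was at 137, 163 and 181 TPM with LPS, against 32.5, 46.4 and 56.5 TPM without stimulus (log2 change 1.84 ± 0.11; adjusted p = 1.35e-09), and Tap1, of the peptide transporter, rose by 1.85 ± 0.17 (1.43e-07). With CpG 2 rose and 1 fell, beside 37.5% of all genes in either direction, and Nlrc5 rose by 0.31 ± 0.11 (0.0382).

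Markers of other cells that carry class II were present. Their counts are to be read against 72.0% of all genes lower with LPS and 22.6% with CpG as deposited, and 38.6% with LPS after scaling. All 12 B cell markers were measured, though Vpreb3 was at 0 in 14 libraries, and their summed level was 141 to 236 TPM with LPS and 136 to 238 TPM with CpG, against 191 to 403 TPM without stimulus. The highest unstimulated sums, 403 and 370 TPM, were those of the 2 libraries that stood apart, and the next was 296 TPM. Of the 11 B cell markers tested, 7 fell with LPS and 0 rose as deposited (2 fell and 4 rose after scaling). With CpG 6 fell and 1 rose. Their median change with LPS was -0.48, above the -0.72 of all genes, and with CpG -0.59, below the -0.05 of all genes. Of 10 dendritic cell markers, Siglech was at 0 in 5 libraries and Flt3 at most 1.33 TPM, and the list summed to 23.9 to 34.1 TPM with LPS and 54.5 to 72.0 TPM with CpG, against 22.6 to 40.0 TPM without stimulus. Most of the CpG sum was Ccr7, which rose by 1.79 ± 0.20 (adjusted p = 2.65e-05). The 9 small peritoneal macrophage markers summed to 61.3 to 131 TPM with LPS and 109 to 199 TPM with CpG, against 105 to 223 TPM without stimulus, with Ccr2 at most 1.59 TPM. Of 5 tested, 4 fell and 0 rose with LPS as deposited (1 fell and 2 rose after scaling), and 3 fell and 2 rose with CpG. The 10 large peritoneal macrophage markers summed to 1872 to 2263 TPM with LPS and 2396 to 3056 TPM with CpG, against 2316 to 3454 TPM without stimulus, and 9 of 10 fell with LPS as deposited (4 fell and 4 rose after scaling) and 6 with CpG. The part of any of these cells in the class II changes was not tested. T cell markers summed to at most 8.67 TPM in any library, and neutrophil markers to 318 to 398 TPM with LPS and 150 to 204 TPM with CpG, against 108 to 162 TPM without stimulus, with Ly6g at 0 in 17 libraries. Mast cell markers summed to 140 to 203 TPM with LPS, mostly Hdc, with 5.74 to 122 TPM with CpG, against 4.60 to 90.4 TPM without stimulus.

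By genotype label no member passed. Label and protein changes are coefficients of the additive limma fit over all 21 libraries, and counts of pairs are given beside them as a description. Against 5.34% of all genes called between the libraries labelled Lum-/- and WT, 0 of 7 members passed. Their changes ran from -0.19 ± 0.12 for Ciita to 0.18 ± 0.10 for H2-Ab1 (adjusted p of 0.360 or more). Between the libraries labelled Bgn-/- and WT, 0 of 7 passed, beside 0.213% of all genes, at adjusted p of 0.630 or more. H2-DMa was at -0.27 ± 0.12 and H2-Ab1 at -0.23 ± 0.10, the only members with an unadjusted p under 0.05, as held for 881 of 11763 genes. With LPS, H2-Ab1 was at 284 TPM (no protein) and 253 TPM (biglycan) in the libraries labelled Bgn-/-, against 336 and 373 TPM in WT. With CpG it was at 274 and 239 TPM in those labelled Bgn-/-, against 319 and 274 TPM in WT, and thus lower in all 4 stimulated pairs. Without stimulus it was at 193 TPM (no protein) and 326 TPM (biglycan) in those labelled Bgn-/-, against 245 and 249 TPM in WT. In all, H2-Ab1 was lower in 5 and higher in 1 of 6 pairs, and the higher one holds a library that stood apart. Without the 2 libraries that stood apart, H2-Ab1 passed, at -0.32 ± 0.06 (adjusted p = 0.0403), beside 1.03% of all genes, and without the untreated WT library as well it did not (0.0639, beside 1.61% of all genes).

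The lists above were also read by label. Of all genes tested, 5.34% passed between the libraries labelled Lum-/- and WT, and 0.213% between those labelled Bgn-/- and WT. The listed genes named here are to be read against these shares. Against WT, the libraries labelled Lum-/- were higher in Lgmn (0.35 ± 0.07; adjusted p = 0.0119) of the class II list and in Socs3 (0.63 ± 0.14; 0.0228) of the regulators, and those labelled Bgn-/- differed in none of either list. B cell Cd22 was lower in the libraries labelled Lum-/- (-0.41 ± 0.11; 0.0487). Mast cell Cma1, Mcpt4 and Tpsb2 were lower in both labels than in WT, with log2 changes of -2.62, -2.26 and -2.53 labelled Lum-/- and of -3.06, -2.72 and -3.14 labelled Bgn-/-. The untreated WT library was an exception, with a mast cell marker sum of 4.60 TPM, the lowest of all 21 libraries. Of small peritoneal macrophage markers, Folr2 (1.03 ± 0.17; 0.00446) and Clec10a (0.59 ± 0.14) were higher and Itgax (-0.57 ± 0.14) lower in those labelled Lum-/-, and Retnla (-1.15 ± 0.14; 0.00235) was lower in those labelled Bgn-/-. Of large peritoneal macrophage markers, Cxcl13 (1.46 ± 0.31) and Fcna (0.38 ± 0.09) were higher and Timd4 (-0.90 ± 0.22) lower in those labelled Lum-/-. Their part in the class II values was not tested.

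The ratio of H2-Ab1 to H2-Aa was lowest in the libraries labelled Bgn-/-, which was noticed after the values were seen. With LPS it was 1.49 and 1.56 in the libraries labelled Bgn-/- and 2.08 and 2.43 in those labelled Lum-/-, against 1.79, 1.81 and 1.88 in WT. With CpG it was 0.806 and 0.838 in those labelled Bgn-/- and 1.10 and 1.30 in those labelled Lum-/-, against 1.06, 1.08 and 1.13 in WT. Without stimulus it was 0.903 and 0.915 in those labelled Bgn-/- and 0.928 and 0.986 in those labelled Lum-/-, against 0.981 to 1.00 in WT. Over 6 matched pairs the log2 ratio of H2-Aa to H2-Ab1 was 0.26 higher in the libraries labelled Bgn-/- than in WT, in 6 of 6 pairs, with an exact p of 0.0312, the smallest this design gives. Adjusted over 84 such tests (21 ratios by 4 comparisons) that p was 0.138, and it does not pass. For the libraries labelled Lum-/- against WT the mean difference was -0.13, higher in 2 and lower in 4 of 6 pairs (exact adjusted p = 0.303).

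A difference between labels in the response to a stimulus was not detectable for any member. In the fit with genotype-by-stimulus terms, 0 of 7 members and 0 of 11763 genes (0%) passed in any of the 4 comparisons by limma, while 559 to 1445 genes had an unadjusted p under 0.05. The differences in response ran from -0.46 ± 0.30 (Cd74, CpG, labelled Lum-/- against WT) to 0.41 ± 0.32 (H2-DMa, CpG, labelled Bgn-/- against WT), so that differences of this size could not be resolved.

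Added lumican and added biglycan were each compared with no protein in the same additive fit, with 6 matched pairs for each protein. By limma 0 of 7 members and 0 of all genes (0%) passed for either protein, with 1218 genes at an unadjusted p under 0.05 for lumican and 1054 for biglycan. The fitted log2 change of H2-DMb1 with lumican was -0.37 ± 0.08 and did not pass (adjusted p = 0.241), with values below 0 in 6 of 6 pairs. Without stimulus it was at 25.2 TPM with lumican in the library labelled Lum-/- and 24.9 TPM in WT, against 40.5 and 44.5 TPM without protein. The pair labelled Lum-/- holds a library that stood apart, and without the 2 such libraries the change was -0.35 ± 0.09 (adjusted p = 0.163). With LPS it was at 12.5 and 14.5 TPM with lumican, against 15.8 and 15.7 TPM without, and with CpG at 19.5 and 20.7 TPM, against 24.3 and 23.3 TPM, in cells labelled Lum-/- and WT. H2-DMa was at -0.31 ± 0.12 with lumican, lower in 5 of 6 pairs (0.402). For the other 5 members the change with lumican lay between -0.17 and -0.01. With biglycan H2-DMb1 was at -0.19 ± 0.08, lower in 5 of 6 pairs (0.548), and the other 6 members lay between -0.04 and 0.17.

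**Figure D4:**
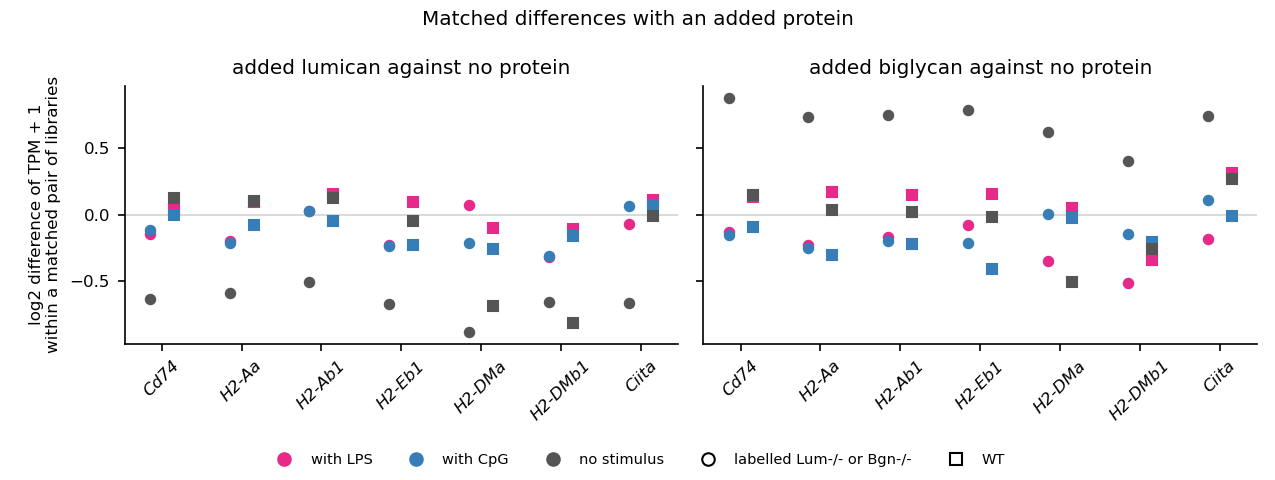
Log2 difference of TPM + 1 between the library with added lumican (left) or biglycan (right) and its match without protein (y axis), 6 pairs per gene, with colour for the stimulus, circles for cells labelled Lum-/- or Bgn-/- and squares for WT. H2-DMb1 lies below 0 in 6 of 6 pairs with lumican, and the outlying unstimulated circles are the pairs that hold 1 of the 2 libraries that stood apart.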

How the data were processed

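Per the labels' protocols, RNA from 21 cultures was sequenced after a stranded TruSeq preparation. The tools bcl2fastq 1.8.4 and kallisto 0.44.0 and the build GRCm38 are named in the submitters' processing notes. The deposited values are the authors' TPM of each transcript, which sum to 1000000 in a library. They give no counts, so depth is unknown and no counting intervals are given; whether kallisto used strand is not given in the sources used here. Of 89562 transcripts, 6774 had no gene name; 5423 were matched by ID to GENCODE vM21 and 1351 left out. TPM was summed per gene.

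Testing covered genes averaging 1 TPM or more, with limma 3.58.1 (R 4.3.3; trend, two-sided) on log2(TPM + 1), which understates changes of low genes such as Ciita, with a Benjamini-Hochberg adjusted p under 0.05. The model was genotype label plus 9 treatments (10 residual degrees of freedom), and genotype-by-stimulus terms were added for responses (6). Stimulus changes equal the means over 7 matched pairs; label and protein changes are coefficients of the additive model, not means over their 6 pairs. The fit was tested on simulated data. Ratios used an exact sign-flip permutation test (Python 3.11.15, numpy 2.4.6, pandas 2.3.3, scipy 1.17.1); figures used matplotlib 3.10.9. Named are the 7 members, genes of the listed sets, Lum, Bgn and Arg1, and the 8 genes most correlated with the members. Members and lists were chosen with earlier results of these data known. The alternatives tried were other pseudocounts (0.1, 5), a filter at 5 TPM or none, median-of-ratios scaling, the most abundant transcript, a block for each combination of label and protein, the 3 pairs without protein, and leaving out libraries.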

Additional observations from a re-analysis of the deposited data

Results flagged for a closer look

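H2-DMa was at 9.46 TPM in the LPS library with biglycan labelled Bgn-/-, below the 12.3 to 13.96 TPM of the other 6 LPS libraries, a gap of 0.627 of the whole range against a limit of 0.568 for 7 values. The 7 libraries differ in label and protein, and chance alone passes this limit in about 1 in 20 groups; 21 groups were read.

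The mean change of Cd74 with added lumican was below 0 in cells labelled Lum-/- and slightly above 0 in WT. Cd74 was lower in all 3 pairs labelled Lum-/- (-0.14 with LPS, -0.11 with CpG and -0.63 without stimulus, on the log2 scale). In WT it was 0.04 higher with LPS, 0.12 higher without stimulus and level with CpG (0.00, at 874.8 against 874.0 TPM). The means differ by -0.352. The difference was not tested, and the pair at -0.63 holds the untreated library labelled Lum-/-, one of the 2 that stood apart.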

How the results depend on the processing

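With LPS against no stimulus, 6 or 7 members passed under all 32 alternatives. Median-of-ratios scaling reversed H2-Aa to 0.29, H2-Eb1 to 0.24 and Cd74 to 0.54, and scaling together with leaving out the 2 libraries that stood apart (chosen after seeing the data) gave 0.43, 0.37 and 0.69. For LPS against CpG, scaling reversed H2-Aa to 0.18, H2-Eb1 to 0.14, H2-DMa to 0.12, H2-DMb1 to 0.081, Cd74 to 0.47 and Ciita to 0.30, with 3 members passing in place of 7; with both changes these were 0.16, 0.12, 0.098, 0.061, 0.45 and 0.29, with 4 passing. The 3 pairs without protein gave 4. For CpG against no stimulus the count was 6 without the 2 libraries, 7 without the untreated WT library as well, and 7 with scaling and without the 2, in place of 3. For the libraries labelled Bgn-/- against WT it was 1 (H2-Ab1) in place of 0 without the 2. The cause of these changes was not tested.

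Leaving out each library in turn gave 6 to 7 members for LPS, 3 to 4 for CpG, 4 to 7 for LPS against CpG (4 without the CpG library of WT with lumican), 0 to 1 for added lumican (1, H2-DMb1, at an adjusted p of 0.0223, without the untreated library labelled Bgn-/-) and 0 for the other 7 comparisons. Responses of the cells labelled Bgn-/- could not be fitted without the 3 libraries, and Ciita was not tested with a mean of at least 5 TPM. The labels number no replicates, so no replicate block could be fitted. With a block for each combination of label and protein, 7 members passed for LPS, 3 for CpG and 6 for LPS against CpG. In the main fit, 86.1% of all genes passed for LPS, 37.5% for CpG and 85.7% for LPS against CpG. Where a setting has no share of all genes given in this report, its count is not read as a result about the members. The ratio tests were chosen after seeing the data, and without the 2 or 3 libraries no ratio against no stimulus can pass. The TPM give no depth, so levels of Ciita and of single transcripts near 1 TPM are the least certain.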

Other observations

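The 2 unstimulated libraries that stood apart, the untreated one labelled Lum-/- and the biglycan-alone one labelled Bgn-/-, held 1189 and 1148 TPM of Cd74, 369 and 357 TPM of H2-Aa, 246 and 252 TPM of H2-Eb1 and 343 and 326 TPM of H2-Ab1. The other 5 unstimulated libraries lay at 624 to 824 TPM for Cd74, 214 to 267 TPM for H2-Aa, 146 to 175 TPM for H2-Eb1 and 193 to 267 TPM for H2-Ab1. For H2-DMa (56.8 TPM) and H2-DMb1 (44.5 TPM) the untreated WT library was the highest. These values were chosen after they were seen and are given with no test.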
